A study of Mus musculus with 22 samples.

Results

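The genes of cholinergic transmission examined here were 9 of the 21995 genes in the deposited tables of mouse spinal cord RNA: Chat, Slc18a3, Slc5a7, Ache, Chrna4, Chrna7, Chrnb2, Chrm1 and Chrm2. The 9 genes are a named list, fixed by no threshold on a value but chosen with earlier results of these data known. All 9 passed the filter on low counts in every comparison. Whole spinal cords were sequenced in 2 experiments. The first held 8 young wild-type male C57BL/6 mice aged 3 to 4 months and 8 old wild-type male mice aged 18 to 24 months. The second held 3 symptomatic SOD1 G93A mice and, as controls, 3 wild-type mice, all aged 5 to 6 months by their labels, and included both sexes. SOD1 G93A mice carry a high copy number of a mutant human SOD1 transgene and were kept on a C57BL/6 background; they represent 1 transgenic line and a model of amyotrophic lateral sclerosis (ALS). The experiments used different library kits, so a kit and an experiment cannot be told apart.

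Acetylcholine is made from choline and acetyl-CoA by choline acetyltransferase, which Chat encodes. The vesicular acetylcholine transporter (Slc18a3) loads it into synaptic vesicles, acetylcholinesterase (Ache) splits it after release, and the high-affinity choline transporter (Slc5a7) returns choline to the nerve ending. Nicotinic receptors are ligand-gated ion channels: the products of Chrna4 and Chrnb2 assemble together and that of Chrna7 can form a receptor alone, while Chrm1 and Chrm2 encode muscarinic receptors, which act through G proteins. In the spinal cord, motor neurons release acetylcholine onto muscle and within the cord, and cholinergic interneurons release it onto motor neurons.

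Chat (ENSMUSG00000021919) lies on chromosome 14 of GRCm38, from 32408203 to 32465989 on the minus strand. Slc18a3 (ENSMUSG00000100241), a gene of 1 exon from 32462438 to 32464850, lies within it on the same strand, and the annotated exons of the pair share 0 bases. Slc5a7 (ENSMUSG00000023945) lies on chromosome 17, from 54273590 to 54299034 on the minus strand. These 3 genes supply acetylcholine in the same neurons and are read below as a group. The bases directly upstream of their annotated 5' ends are therefore shown. They come from the RefSeq promoter windows of GRCm38.p6 and run 5' to 3' on the minus strand, with motif matches in capitals.
Chat, chr14:32465990-32466159: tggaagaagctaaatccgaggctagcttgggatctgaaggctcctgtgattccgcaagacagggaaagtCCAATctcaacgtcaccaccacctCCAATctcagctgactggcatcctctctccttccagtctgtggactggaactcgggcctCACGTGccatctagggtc
Slc18a3, chr14:32464851-32465100: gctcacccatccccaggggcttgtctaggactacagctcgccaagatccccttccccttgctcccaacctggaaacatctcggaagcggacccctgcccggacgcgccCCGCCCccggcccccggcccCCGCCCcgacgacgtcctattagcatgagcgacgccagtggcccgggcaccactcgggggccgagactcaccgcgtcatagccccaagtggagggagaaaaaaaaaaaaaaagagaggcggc
Slc5a7, chr17:54299035-54299284: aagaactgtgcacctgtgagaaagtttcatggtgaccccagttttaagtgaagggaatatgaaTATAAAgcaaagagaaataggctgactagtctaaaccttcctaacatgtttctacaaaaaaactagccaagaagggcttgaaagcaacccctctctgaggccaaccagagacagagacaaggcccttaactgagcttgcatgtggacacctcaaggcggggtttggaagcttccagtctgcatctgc
The capitals mark 2 copies of CCAAT and 1 of CACGTG before Chat, 2 copies of GGGCGG (read as CCGCCC on the strand shown) before Slc18a3, and 1 TATAAA before Slc5a7. Motifs were searched on both strands in windows of 300 bases, none of the motifs contains another, and 8 of the 9 genes had a window. CCAAT was in 37.4% of all 32851 windows, CACGTG in 7.15%, GGGCGG in 35.7% and TATAAA in 13.6%. Over the 8 genes, GGGCGG was in 6 windows (Slc18a3, Ache, Chrna4, Chrna7, Chrnb2 and Chrm2), CACGTG in 3 (Chat, Ache and Chrna7) and CCAAT in 2 (Chat and Chrm2). No window of the 8 held TGACGTCA, found in 1.79% of all windows, or TAATTA, found in 5.29%. The windows of Slc18a3 and Slc5a7 differed in composition, with 67.0% G or C and 27 CpG before Slc18a3 against 44.7% and 1 CpG before Slc5a7, where the median window held 52.7% and 7 CpG.

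Libraries held between 5078092 and 9358055 expected counts in the young and old mice and between 9675610 and 13219797 in the control and SOD1 G93A mice. Sod1, to which the label of the transgenic group refers, was higher in SOD1 G93A libraries (298, 296 and 335 CPM, counts relative to library size) than in control libraries (168, 156 and 156 CPM), with a log2 fold change of 0.95. Whether reads of the human transgene entered these counts was not tested. Libraries are named by their group and order in the table. SOD1 G93A library 2 was nearest to the controls in its neuronal transcripts.

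Levels of different genes can be compared only per transcript length, here in FPKM (fragments relative to transcript length and library size). Ache stood first in every group, at 77.3 ± 4.25 FPKM (SD, n = 8) in young and 79.7 ± 2.30 FPKM (n = 3) in control mice. Slc18a3 (23.1 ± 2.37 FPKM in young mice) and Slc5a7 (18.7 ± 1.63 FPKM) came next, and their ranges overlapped in old, control and SOD1 G93A mice. Chrna4, Chrm2 and Chrnb2 followed, at 15.5 ± 1.07, 13.9 ± 0.962 and 11.5 ± 0.367 FPKM in young mice. In young mice the range of Chrna4 overlapped those of Slc5a7 and Chrm2, while Chrnb2 lay below both. Chat was lower, at 7.74 ± 1.44 FPKM in young mice. Chrna7, at 4.56 ± 0.699 FPKM, overlapped Chat in young mice but lay below it in the other 3 groups. The lowest was Chrm1, at 0.248 ± 0.132 FPKM, with 4 to 20 counts per library over both experiments.

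**Figure D1:**
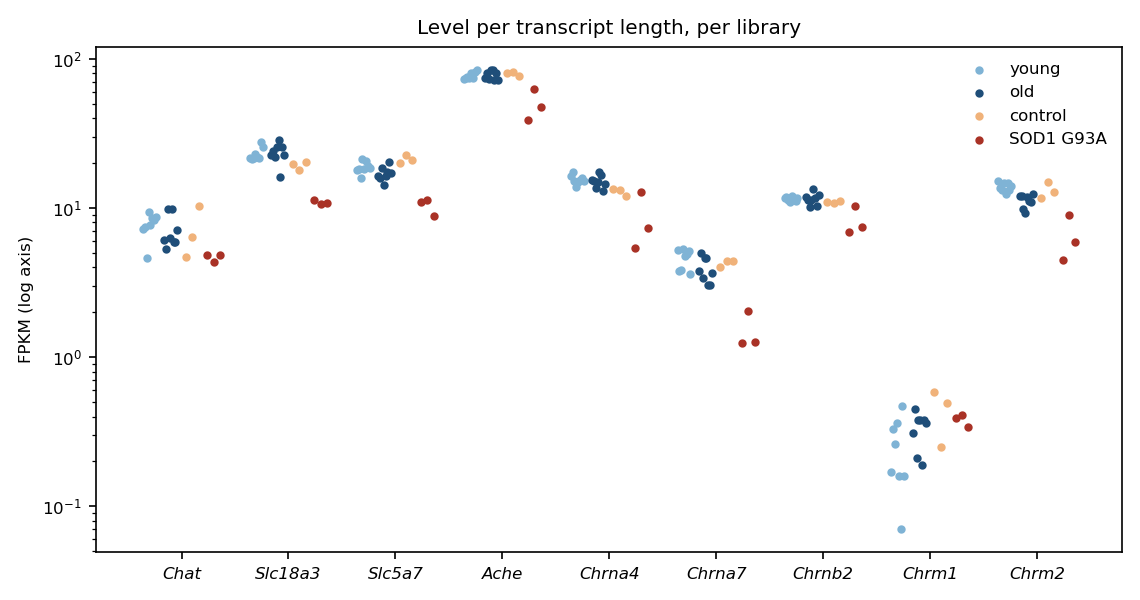
FPKM on a log axis for each of the 9 genes, with 1 point per library coloured by group (8 young, 8 old, 3 control, 3 SOD1 G93A). Ache lies above the other genes in every group and Chrm1 below them, and the SOD1 G93A points of Slc18a3, Slc5a7, Ache, Chrna7, Chrnb2 and Chrm2 lie under the control points, while those of Chrna4 overlap them.

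In SOD1 G93A against control mice, 7 of the 9 genes were lower at an adjusted p under 0.05 and 0 were higher, against 15.5% and 18.4% of the 14386 genes tested. These were Slc18a3, Slc5a7, Ache, Chrna4, Chrna7, Chrnb2 and Chrm2. Chrna7, Chrm2 and Slc5a7 also had a log2 fold change below -1, as 1.2% of the genes tested had. The median log2 fold change was -0.74 over the 9 genes and 0.00 over all genes tested. In the same 7 genes every SOD1 G93A library lay below every control library in CPM, as in 24.7% of the genes tested. In FPKM the groups overlapped for Chrna4, where SOD1 G93A library 2 (12.74 FPKM) lay above control library 3 (11.97 FPKM). In whole cord, fewer cells of a type and less RNA per cell cannot be told apart.

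Of the genes that make, load and recover acetylcholine, Slc5a7 and Slc18a3 fell and Chat did not pass the test. Slc5a7 was at 112, 125 and 116 CPM in control mice and at 60.1, 60.0 and 46.6 CPM in SOD1 G93A mice, a 2.12-fold fall (log2 fold change -1.08, SE 0.11, edgeR adjusted p = 0.000344). Slc18a3 was at 50.5, 46.0 and 52.6 CPM in control mice and at 28.5, 26.1 and 26.7 CPM in SOD1 G93A mice, a 1.83-fold fall (-0.87, SE 0.09, edgeR adjusted p = 0.000417). The SOD1 G93A libraries of Slc18a3 lay close together, with an SD of 1.24 CPM. Chat was at 14.0, 19.3 and 30.7 CPM in control mice and at 14.2, 12.4 and 13.9 CPM in SOD1 G93A mice. The groups overlapped, because control library 1 was as low as the SOD1 G93A libraries, and the control libraries spread over more than the difference of the means. Its log2 fold change was -0.67 (95% confidence interval -1.24 to -0.09, edgeR adjusted p = 0.0708). The result for Chat turned on single libraries and on the model: it was -0.90 (edgeR adjusted p = 0.025) without control library 1 and -0.31 (0.238) without control library 3. DESeq2 gave an adjusted p of 0.048, and an edgeR fit of all 22 libraries gave 0.0216.

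Ache, whose enzyme ends the signal, was at 197, 195 and 185 CPM in control mice and at 93.5, 138 and 114 CPM in SOD1 G93A mice. It fell 1.67-fold (log2 fold change -0.74, SE 0.13, edgeR adjusted p = 0.0046), and its highest SOD1 G93A value, in library 2, lay below the lowest control value.

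All 3 nicotinic subunits fell. Chrna7, the subunit of the homomeric receptor, had the lowest log2 fold change of the 9 genes. It was at 8.83, 9.85 and 9.76 CPM in control mice and at 2.71, 4.33 and 2.69 CPM in SOD1 G93A mice, from 30 to 43 counts per library in the latter, a 2.94-fold fall (log2 fold change -1.56, SE 0.23, edgeR adjusted p = 0.00174). Chrna4 was at 56.6, 55.7 and 52.3 CPM in control mice and at 26.0, 46.2 and 31.1 CPM in SOD1 G93A mice, a 1.60-fold fall (-0.68, SE 0.18, edgeR adjusted p = 0.0213). Chrnb2, whose product pairs with that of Chrna4, was at 72.9, 71.0 and 73.5 CPM in control mice and at 43.8, 63.7 and 46.8 CPM in SOD1 G93A mice, a 1.41-fold fall (-0.50, SE 0.13, edgeR adjusted p = 0.0212). SOD1 G93A library 2 was the highest of its group for all 3 subunits and stood nearest to the controls. Chrna4 passed the threshold in 2 of 6 fits that left out 1 library, and did not without control library 1, 2 or 3 or SOD1 G93A library 3. Chrnb2 passed only without SOD1 G93A library 2. Chrnb2 shares 1365 exonic bases with Adar on the opposite strand, and the strand setting of the counting was not given in the sources used here.

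Of the muscarinic receptors, Chrm2 fell and Chrm1 did not pass the test. Chrm2, a receptor that couples to inhibitory G proteins, was at 71.0, 91.0 and 78.3 CPM in control mice and at 26.9, 52.3 and 34.4 CPM in SOD1 G93A mice, a 2.12-fold fall (log2 fold change -1.09, SE 0.21, edgeR adjusted p = 0.0062). Chrm1 was at 1.33, 1.18 and 1.54 CPM in control mice and at 1.69, 1.61 and 1.43 CPM in SOD1 G93A mice, with overlapping groups. Its log2 fold change of 0.22 had a 95% confidence interval from -0.47 to 0.91 (edgeR adjusted p = 0.603), so that neither a rise nor a fall of moderate size was detectable at 14 to 20 counts per library. With 1 library left out, 5 of the 9 genes were lower without control library 2, control library 3 or SOD1 G93A library 3. Over all genes tested, these fits called 956 of 14580, 1253 of 14565 and 715 of 14528 lower. Without control library 1 or SOD1 G93A library 1, 6 of the 9 were lower, against 1344 of 14632 and 1368 of 14491. Without SOD1 G93A library 2, 7 were lower, against 3172 of 14584. With all libraries 2236 of 14386 were lower.

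**Figure D2:**
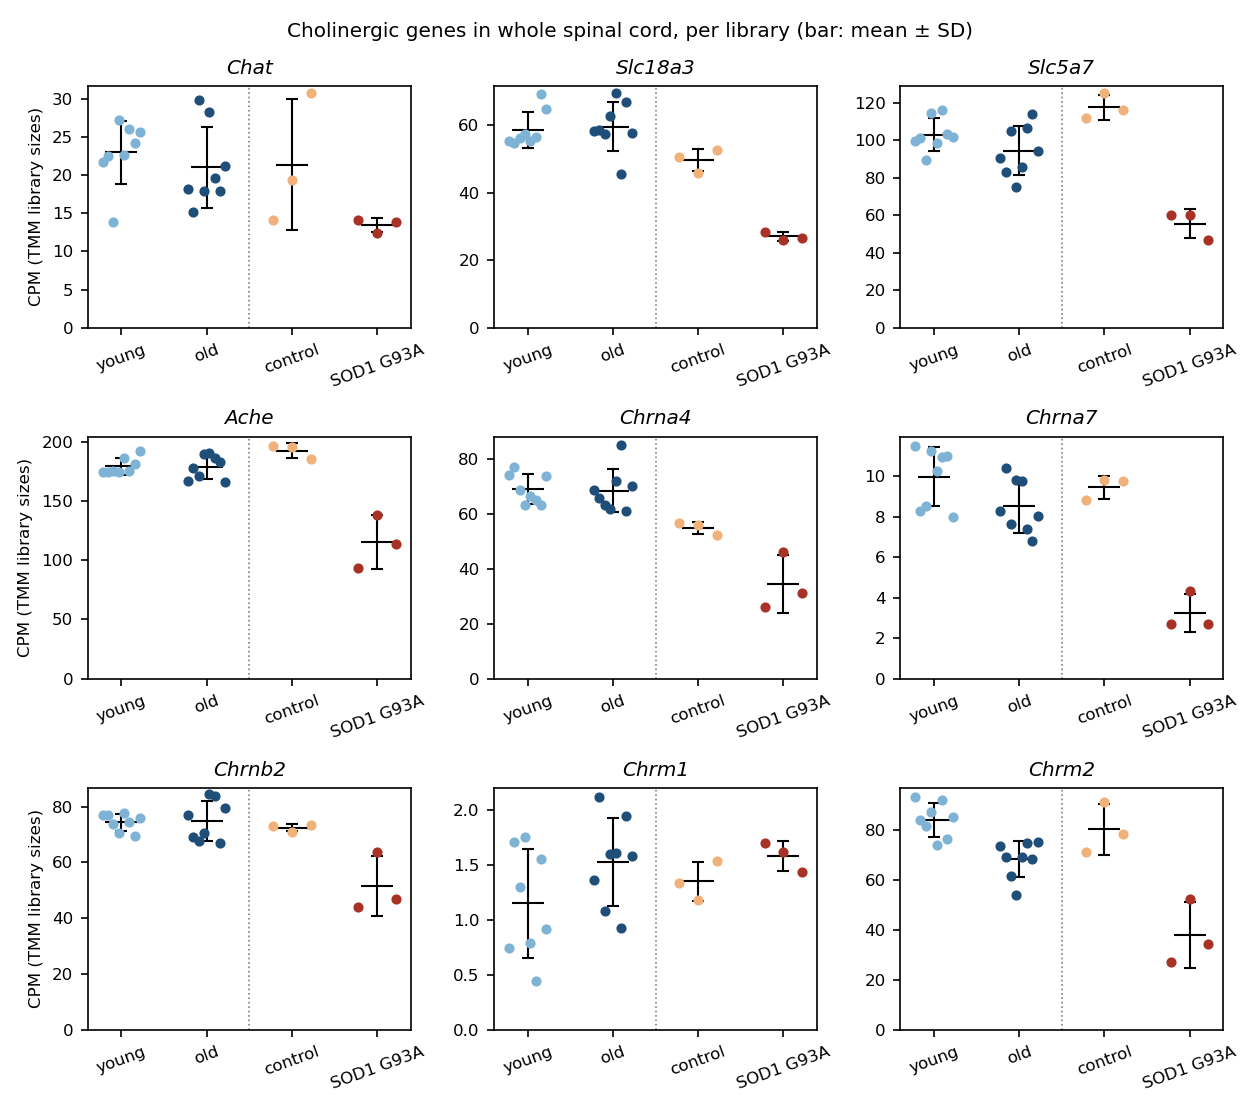
CPM with TMM library sizes for the 9 genes, with 1 point per library and the mean ± SD of each group (8 young, 8 old, 3 control, 3 SOD1 G93A), the 2 experiments being parted by a dotted line. The SOD1 G93A points lie below all control points for 7 genes, and overlap them for Chat and Chrm1, while young and old points overlap in every panel.

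In old against young mice, 1 of the 9 genes was lower and 0 were higher at an adjusted p under 0.05, against 12.9% and 13.5% of the 13647 genes tested. No gene of the 9 had groups without overlap, as 1.66% of the genes tested had downward and 3.66% upward. The gene called was Chrm2, and the median log2 fold change was -0.02 over the 9 genes and -0.00 over all genes tested. Chrm2 ranged from 73.8 CPM over a median of 84.3 to 93.2 CPM in young mice, and from 53.8 over 69.1 to 74.8 CPM in old mice. It was 1.24-fold lower in old mice (log2 fold change -0.31, SE 0.06, edgeR adjusted p = 0.00111). The highest old value lay just above the lowest young value. The fall kept an adjusted p of 0.00329 or less in each of 16 fits that left out 1 library.

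The other 8 genes did not pass the test with age. Slc5a7 had a median of 102 CPM in young mice (range 89.4 to 116) and 92.7 CPM in old mice (75.3 to 114), with a log2 fold change of -0.13 (95% confidence interval -0.28 to 0.02). Chat had medians of 23.4 and 18.9 CPM, with a log2 fold change of -0.13 (-0.41 to 0.15). Young library 3 held the lowest Chat value of its group, 13.9 CPM. Chrna7 had medians of 10.6 and 8.17 CPM and a log2 fold change of -0.22 (-0.45 to 0.02). These 3 genes had lower medians in old mice by less than the range of either group. The intervals were narrow for Slc18a3 (log2 fold change 0.02, -0.12 to 0.17), Ache (-0.00, -0.09 to 0.08), Chrna4 (-0.02, -0.15 to 0.11) and Chrnb2 (0.01, -0.11 to 0.12). For Ache, the young values ran from 174 to 192 CPM and the old values from 166 to 190 CPM, nearly the same range. Chrm1 was at 0.439 to 1.75 CPM in young and 0.925 to 2.11 CPM in old mice, and its interval (0.45, -0.10 to 1.01) was too wide to show a direction.

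The log2 fold changes of the 2 comparisons were set against each other in 1 fit of all 22 libraries. The change in SOD1 G93A mice was more negative than the change with age for 7 of the 9 genes at an adjusted p under 0.05, against 14.2% of the 14502 genes tested, and more positive for 0, against 11.6%. The difference on the log2 scale was -1.37 for Chrna7 (SE 0.23, edgeR adjusted p = 0.000126), -0.98 for Slc5a7 (0.14, 3.13e-05) and -0.92 for Slc18a3 (0.13, 2.64e-05). Chrna7, the subunit with the largest difference, was the 1 gene of the 9 that passed -1, as 0.986% of the genes tested did. For Chrm2, which also fell with age, the difference was -0.81 (SE 0.18, edgeR adjusted p = 0.00149). It was -0.77 for Ache, -0.69 for Chrna4 and -0.53 for Chrnb2, and neither Chat (-0.57, edgeR adjusted p = 0.151) nor Chrm1 (-0.25, 0.73) passed the test. The difference for Chat was -0.79 (edgeR adjusted p = 0.0421) without control library 1 and -0.20 (0.648) without control library 3. Age of the mice, library kit and sex differed between the experiments and cannot be told apart from this difference.

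**Figure D3:**
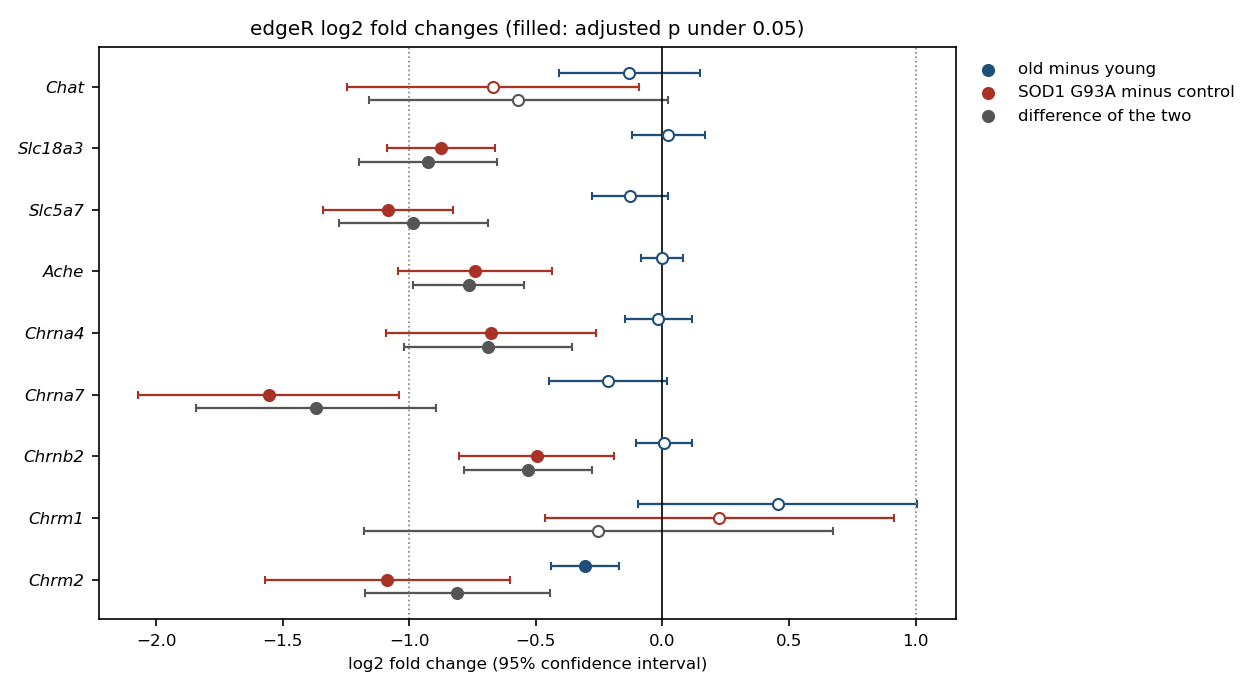
edgeR log2 fold changes (points) with 95% confidence intervals (bars) for the 9 genes in old minus young mice, SOD1 G93A minus control mice, and the difference of the changes, with filled points at an adjusted p under 0.05. The SOD1 G93A points lie between -1.56 and 0.22 and the age points between -0.31 and 0.45, and only Chrm2 is filled for age.

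Neuronal transcripts as a whole were lower in SOD1 G93A mice, so each gene was also set against them. The mean log2 CPM of 10 pan-neuronal genes was lower by 0.61 in SOD1 G93A than in control mice, without overlap. Of the 10 genes 9 fell at an adjusted p under 0.05, against 15.5% of all genes tested. Against this mean, Chrna7 was lower by 0.92 on the log2 scale, Chrm2 by 0.51, Slc5a7 by 0.48 and Ache by 0.14, in each case without overlap. The exact permutation test gave p = 0.1 for each, two-sided and without adjustment, which is the smallest p that 3 against 3 libraries allow. Slc18a3 was lower by 0.26 (exact permutation p = 0.3) and Chrna4 by 0.10 (p = 0.4), both with overlap, and Chat differed by 0.03 (p = 1.0). Chrnb2 stood higher by 0.10 and Chrm1 by 0.82 against this mean, without overlap (exact permutation p = 0.1 for each). Against the median of the same 10 genes Chrnb2 was at -0.041 and Chat at -0.11. The pan-neuronal mean itself fell by 0.61, so a gene of unchanged CPM would stand higher against it. The edgeR log2 fold change of Chrm1 was 0.22. The share of all genes without overlap against this mean was not computed. The value of Slc18a3 was -0.41 without SOD1 G93A library 1 and -0.09 without library 2. That of Chrna4 was -0.03 and -0.19 without these libraries, and that of Chat ran from -0.23 without control library 1 to 0.33 without control library 3. Slc18a3 was lowest against this mean in SOD1 G93A library 2, at -4.10, and nearest to the controls in library 1, at -3.46. Scaling libraries to their pan-neuronal counts moved the median log2 fold change of all genes to 0.71, with 9869 of 14386 genes called higher and 70 lower. With this scaling Chrna7 (-0.89, edgeR adjusted p = 0.012) and Chrm2 (-0.43, 0.045) were called lower and Chrm1 (0.92, 0.0468) higher. On that scale Slc5a7 was at -0.37 (edgeR adjusted p = 0.0973). In old against young mice, Chrm2 was lower by 0.29 against the pan-neuronal mean (exact permutation p = 0.000466, two-sided, over 12870 arrangements), and the other 8 genes had p of 0.115 or more. Against the median of the list in place of its mean, 5 genes had an exact permutation p under 0.05, without adjustment: Chrm2 (-0.42), Slc5a7 (-0.25), Chrna7 (-0.34), Ache (-0.12) and Chrnb2 (-0.11). No share over all genes was computed on this scale. The edgeR log2 fold changes with age were -0.00 for Ache and 0.01 for Chrnb2. Taking the median shifted every gene by the same amount in each library. The signs of Ache, Chrnb2, Slc18a3 and Chrna4 turned with that choice.

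**Figure D4:**
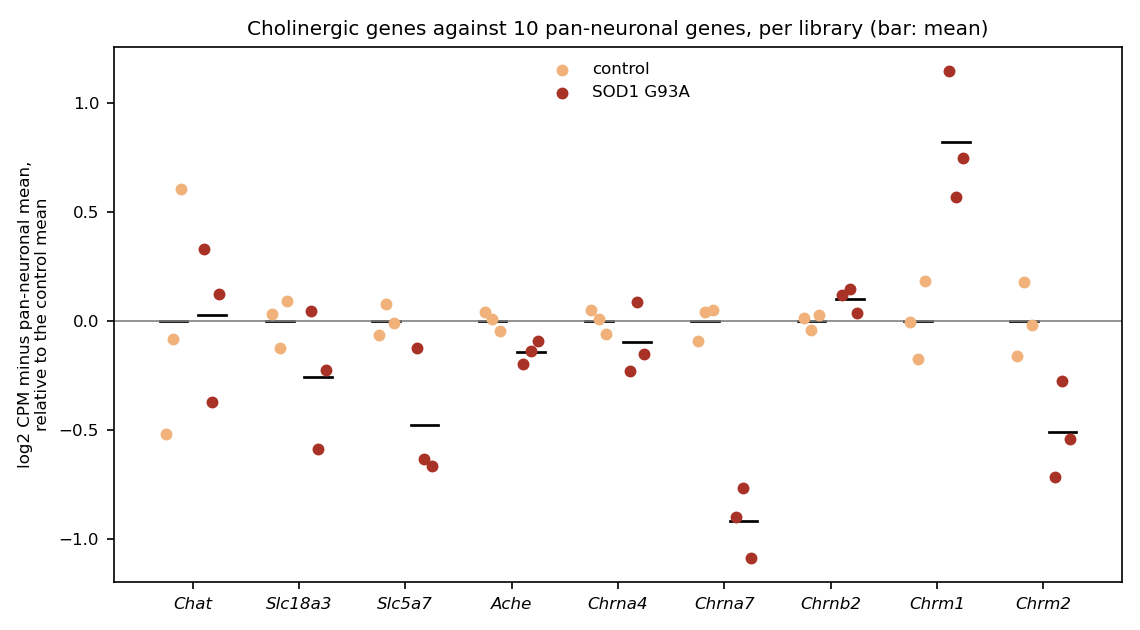
Log2 CPM of each gene minus the mean log2 CPM of 10 pan-neuronal genes, drawn relative to the control mean, with 1 point per library (3 control, 3 SOD1 G93A) and a bar at each group mean. Chrna7, Chrm2, Slc5a7 and Ache lie below all control points, Chrm1 and Chrnb2 above them, and Chat, Slc18a3 and Chrna4 overlap.

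Other genes of the pathway were read as lists. Of 8 other neuronal nicotinic subunits, 2 were abundant enough to test, and both fell in SOD1 G93A mice, where 15.5% of all genes tested fell. Chrna2 fell by 1.25 (edgeR adjusted p = 0.00737) and Chrna3 by 0.84 (0.0451) on the log2 scale. Of 5 muscle nicotinic subunits 1 was tested, Chrnb1, with a log2 fold change of 0.14. Of the 3 other muscarinic receptors, Chrm3 fell with the mutation (-0.68, edgeR adjusted p = 0.0336) and with age (-0.41, 0.00894), while Chrm4 and Chrm5 did not pass in either comparison. Chrm3 encodes a receptor that couples to phospholipase C, unlike that of Chrm2, which also fell in both comparisons.

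Of 9 genes of choline supply, esterase anchoring and cholinergic vesicles, 4 fell and 2 rose in SOD1 G93A mice, where 15.5% of all genes tested fell and 18.4% rose, so that the count that rose was near the background. Slc10a4, a protein of cholinergic vesicles, fell by 1.19 on the log2 scale (edgeR adjusted p = 0.000304), and Acly, which makes acetyl-CoA, fell by 0.84 (0.00071). The genes that rose were the choline transporter-like genes Slc44a2 (1.26, edgeR adjusted p = 0.00237) and Slc44a1 (0.52, 0.00536), which are not restricted to neurons. With age 2 of the 9 fell, Bche (-0.43, edgeR adjusted p = 0.00316), a second cholinesterase, and Prima1 (-0.33, 0.0149), the membrane anchor of acetylcholinesterase, and Slc44a2 rose (0.48, 2.01e-06), counts near the 12.9% and 13.5% of all genes tested. Of 9 tested genes for nicotinic receptor chaperones and Ly6 modulators, 5 fell and 1 rose in SOD1 G93A mice, against the same 15.5% and 18.4%. Lynx1 (-0.72), Lypd6 (-0.77) and the chaperone Tmem35a (-0.71) were among those that fell, and Ly6e rose (0.66). With age 1 of the 9 fell, Lypd1 (-0.21), and 2 rose, Ly6e (0.32) and Lypd6b (0.19), against 12.9% and 13.5% of all genes tested. In SOD1 G93A mice Lypd6b fell by 0.73 on the log2 scale (edgeR adjusted p = 0.0314).

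Of 13 tested markers of motor neurons and cholinergic interneurons, 8 fell and 1 rose in SOD1 G93A mice, against 15.5% and 18.4% of all genes tested. Chodl, a marker of fast motor neurons, fell by 3.16 on the log2 scale, Lhx4 by 1.90 and Mmp9 by 1.59, beside a fall of Chrna7 by 1.56. Prph fell by 0.66, and Uts2 rose by 1.21 and was named after its value was seen. With age 2 of the 13 fell, Chodl by 0.23 and Lhx4 by 0.32, a share near the 12.9% of all genes tested. Among 8 glutamatergic and inhibitory genes, 4 fell in SOD1 G93A mice, against 15.5% of all genes tested, with a median log2 fold change of -0.53. With age 4 of the 7 tested fell, against 12.9%. Microglial markers rose in both comparisons, 6 of 8 in SOD1 G93A and 7 of 8 in old mice, and 6 of 7 astrocyte markers rose in SOD1 G93A mice. Over all genes tested, 18.4% rose in SOD1 G93A and 13.5% in old mice. The summed CPM of the microglial list ran from 334 to 405 in control and from 1235 to 2188 in SOD1 G93A mice, and that of the astrocyte list from 5272 to 5824 and from 10907 to 17415. Their part in the lower CPM of the cholinergic genes was not tested. The summed CPM of 6 skeletal muscle markers was at most 2.95 in the SOD1 G93A experiment and 6.19 in the young and old mice.

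**Figure D5:**
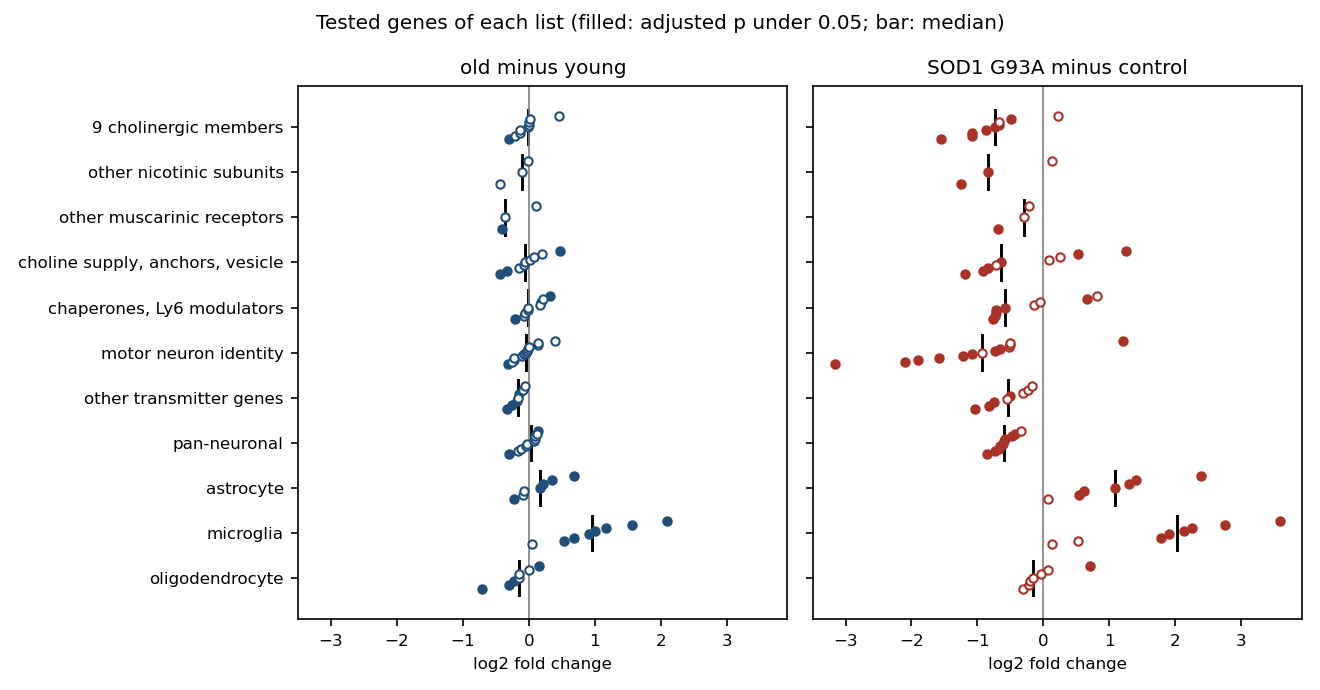
edgeR log2 fold changes of the tested genes of each list in old minus young (left) and SOD1 G93A minus control mice (right), with filled points at an adjusted p under 0.05 and a bar at the list's median. The 9 cholinergic genes have a median of -0.02 on the left and -0.74 on the right, beside -0.93 for motor neuron markers and -0.60 for pan-neuronal genes on the right.

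For 5 of the genes, the 3 genes with the most similar pattern over the 22 libraries were sought among 13590 genes tested in both comparisons, with each experiment centred on its own mean. Slc5a7 was most like Slc10a4 (Pearson r = 0.956), followed by Chodl (0.914) and Nefl (0.908), a neurofilament gene. Among the 3 genes most like Slc18a3 were Anxa6 (0.918) and Kcnj14 (0.900). Ache was most like Eef1a2 (0.967), Klc2 (0.966) and Rap1gap (0.964). Chrna7 was most like Cacna2d3 (0.939), Acly (0.931) and Copg1 (0.928). The highest r for Chat was lower, 0.666 with Hnmt, then 0.665 with Kcnj12 and 0.661 with Pgbd5. These values describe libraries that share the difference between SOD1 G93A and control mice.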

How the data were processed

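RNA from whole spinal cord was sequenced on an Illumina platform from 22 mice, with 1 library per cord. Per the study's methods, reads were aligned with STAR and summarized with RSEM on the mouse genome build mm10. The submitters' processing notes name SAMtools 1.3. One table held expected counts from RSEM, which the authors did not scale between libraries. The other held deposited log2 values of FPKM plus a pseudocount of 1. FPKM were recovered here from these deposited log2 values. Alternative transcripts and reads shared between similar genes were divided by RSEM's estimates, which can move counts between overlapping genes.

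The counts, whole after rounding, were tested with edgeR 4.0.16 (quasi-likelihood, TMM scaling) in R 4.3.3. The filter (filterByExpr) asked for a CPM worth some 10 counts in a full group of libraries, and 15 counts in total, and p-values were adjusted by the Benjamini-Hochberg method over all genes tested. Calls used an adjusted p under 0.05, or also a log2 fold change beyond 1 in size. CPM used TMM library sizes. Log2 CPM against 10 pan-neuronal genes used a prior count of 2. DESeq2 1.42.0, other filters and scalings, and leaving out libraries were alternatives. 3 counts corresponded to 0.231 to 0.582 CPM. Gene symbols came from GENCODE M21, which matched 21842 of the 21995 identifiers. The fit was tested on simulated data. The members and lists were chosen with earlier results of these data known. Named genes were all 9 members, up to 4 genes of each list with the smallest adjusted p, the 3 most similar genes for 5 members, and Sod1 as a check; some items that the rule names are not reported here. The edgeR p-values set each difference against the spread between these libraries, with variances shared in part across genes. The permutation p-values count arrangements of the group labels.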

Additional observations from a re-analysis of the deposited data

Results flagged for a closer look

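Of 18 sets of 8 young or 8 old libraries, 1 for each gene and group, 2 had a library far from the others by Dixon's criterion, where chance gives about 1 in 20. The lowest young value of Chat, 13.9 CPM in library 3, stood apart from the next, 21.7 CPM. The highest old value of Chrna4, 84.8 CPM in library 6, stood apart from the next, 71.8 CPM.

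For 7 genes the change in SOD1 G93A mice differed from the change with age in the interaction test. The differences on the log2 scale were -1.37 for Chrna7, -0.98 for Slc5a7, -0.92 for Slc18a3, -0.81 for Chrm2, -0.77 for Ache, -0.69 for Chrna4 and -0.53 for Chrnb2. Library kit, sex and age range differed between the experiments and cannot be told apart from these differences.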

How the results depend on the processing

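With libraries scaled to pan-neuronal counts, 2 of the 9 genes were lower in SOD1 G93A mice, 0 of them below -1, and 1 was higher, while 1 differed from the change with age and 0 passed -1. All genes moved with this scaling. In SOD1 G93A mice 9869 of 14386 were called higher and 70 lower, 16 of them below -1, against 2641, 2236 and 172. In the difference 10689 of 14502 were more positive and 97 more negative, 18 of them below -1, against 1682, 2063 and 143. Signs turned on this scale for Chat (0.054) and Chrnb2 (0.18) in SOD1 G93A mice, for Chat (0.15), Chrnb2 (0.14) and Chrm1 (0.43) in the difference, and for Ache (0.033) and Chrna4 (0.015) with age. Near-0 age values also turned for Ache with 10 counts in every library (0.0024) and for Chrnb2 without a filter (-0.0035). Without a filter 2 genes passed -1 in the difference, against 173 of all 18992 tested. With 10 counts in every library Chrm1 was not tested with age.

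Against the median in place of the mean of the neuronal list, 5 genes had p under 0.05 with age, and signs turned with age for Slc18a3 (-0.10), Ache (-0.12), Chrna4 (-0.13) and Chrnb2 (-0.11), and in SOD1 G93A mice for Chat (-0.11) and Chrnb2 (-0.041). These p-values were not adjusted over the genes. In each library the choice of median or mean shifts every gene by the same amount. Why the median and the mean of the list moved apart was not tested. The correlation of Chat and Slc18a3 was 0.299 on the log2(FPKM + 1) scale.

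Leaving out each library in turn gave 5 to 7 genes lower in SOD1 G93A mice, 2 to 3 of them below -1, 7 to 8 genes in the difference, 1 to 3 of them below -1 (3 without SOD1 G93A library 2, 2 without SOD1 G93A library 1 or control library 1), and 1 gene lower with age. With age, leaving out libraries was added after the data were seen, and the log2 fold change ran from -0.013 to 0.070 for Slc18a3, -0.018 to 0.013 for Ache, -0.067 to 0.0053 for Chrna4 and -0.024 to 0.026 for Chrnb2. Against the pan-neuronal mean, Chat ran from -0.23 to 0.33, Slc18a3 from -0.41 to -0.09 and Chrna4 from -0.19 to -0.03. No paired analysis was possible because the columns of the deposited tables carry no replicate numbers. At 4 to 20 counts per library, the intervals of Chrm1 were wide, from -0.47 to 0.91 in SOD1 G93A mice and from -0.10 to 1.01 with age. A change of moderate size could be missed.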

Other observations

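Within the young and old groups, libraries high in 1 gene of acetylcholine supply were not regularly high in the others. After subtracting group means, Chat and Slc18a3, which share a locus, had a Pearson r of 0.203 (Spearman rho 0.132) over 16 libraries, and 0.261 without the 2 libraries farthest from the median of Chat. Chat and Slc5a7 had an r of 0.432 (rho 0.415), and 0.208 without those 2 libraries. Slc18a3 and Slc5a7 had an r of -0.191 (rho -0.0882), and -0.00 without the 2 libraries farthest in Slc18a3. These are descriptions over libraries that share depth and scaling.

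The FPKM ratio of Slc18a3 to Chat was 3.09 ± 0.714 (SD, n = 8) in young, 3.46 ± 0.834 in old, 2.99 ± 1.11 (n = 3) in control and 2.35 ± 0.108 in SOD1 G93A mice, and the ranges of the control and SOD1 G93A ratios overlapped. The ratio of Chrna4 to Chrnb2, partners in 1 receptor, was 1.35 ± 0.0779 in young, 1.31 ± 0.0694 in old, 1.17 ± 0.0844 in control and 0.996 ± 0.226 in SOD1 G93A mice. Its range in SOD1 G93A mice (0.781 to 1.23) held the whole range in control mice (1.07 to 1.22). These ratios were not tested.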
